A study of Mus musculus with 9 samples.

Results

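The 9 genes described here encode kinases and phosphatase components of the postsynaptic signalling that sets synaptic strength: Camk2a, Camk2b, Camk2d, Camk2g, Prkca, Ptk2b, Src, Ppp3ca and Ppp1r1a. They were taken by gene symbol, 9 of the 54532 genes listed in each of the 2 deposited tables. No cut on measured values was used, but earlier results of these data were known. Mouse hippocampus was profiled in 9 samples, 3 in each of 3 groups, by RNA sequencing after removal of ribosomal RNA. Con mice ate a standard diet, and HMD mice ate a high-methionine diet for 8 weeks. Bet+HMD mice ate the high-methionine diet for 8 weeks and then drank betaine, which donates a methyl group to homocysteine, at 2.5% (w/v) for 2 weeks, and whether the diet went on in those weeks is not clear. No such 2 weeks are given for Con or HMD mice, so betaine cannot be told apart from time or diet in those weeks. All animals were labelled C57BL/6 males bought at 6 to 8 weeks of age, except that the strain labels of 2 betaine samples read C57BL/7 and C57BL/8. The study's methods describe female mice, whereas all 9 libraries held transcripts of Y-linked genes and at most 0.0449 FPKM of Xist.

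In long-term potentiation, calcium that enters through NMDA receptors binds calmodulin, which activates calcium/calmodulin-dependent kinase II (CaMKII), a holoenzyme of alpha, beta, gamma and delta subunits that phosphorylates glutamate receptors and scaffold proteins. Protein kinase C alpha (Prkca) and the tyrosine kinases Pyk2 (Ptk2b) and Src act beside it, with Pyk2 activating Src and Src raising NMDA receptor currents. Calcineurin, whose catalytic alpha subunit is Ppp3ca, opposes these kinases and is tied to long-term depression. Ppp1r1a is not a phosphatase itself: it encodes inhibitor 1, which blocks protein phosphatase 1 once protein kinase A has phosphorylated it and which calcineurin switches off.

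Values are FPKM, in which fragment counts are divided by gene length and by library size, so levels can be compared between genes per length. Con and HMD were compared in the earlier table, which holds these 6 libraries, and both comparisons with Bet+HMD were made in the later table, which holds all 9. Libraries held 16031464 to 18566712 reads assigned to genes. In the later table Bet+HMD libraries detected 25315 to 25663 genes and Con and HMD libraries 20816 to 23272, and the FPKM summed over all genes was 249135 to 258514 in Bet+HMD against 288439 to 307899 in the others. The library size that the FPKM imply was 1.042 to 1.049 times the assigned reads in Bet+HMD and 0.953 to 1.026 times in the others. Bet+HMD libraries stood only in the later table, and whether they were sequenced with the others is not stated, so treatment and run cannot be told apart. All 8 markers of hippocampal excitatory neurons were detected in every group. Nothing says how tissue was pooled, so p-values measure the spread between these samples alone. In bulk tissue, fewer cells of a type and less RNA per cell cannot be told apart.

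All 9 genes are protein coding and cover 5 autosomes besides chromosome 18 (GRCm38). Camk2a (ENSMUSG00000024617) lies on chromosome 18 from 60925618 to 60988152, plus strand. Camk2b (ENSMUSG00000057897) lies on chromosome 11 from 5969644 to 6066362, minus strand. Camk2g (ENSMUSG00000021820) and Ptk2b (ENSMUSG00000059456) lie on the minus strand of chromosome 14, from 20734875 to 20794088 and from 66153257 to 66281052. Camk2d (ENSMUSG00000053819) and Ppp3ca (ENSMUSG00000028161) lie on the plus strand of chromosome 3, from 126596302 to 126846326 and from 136670124 to 136937727. Prkca (ENSMUSG00000050965) lies on the minus strand of chromosome 11 from 107933387 to 108343928, Src (ENSMUSG00000027646) on the plus strand of chromosome 2 from 157418444 to 157471862, and Ppp1r1a (ENSMUSG00000022490) on the minus strand of chromosome 15 from 103530279 to 103538003. The annotation places 8 other genes inside Camk2d, 4 inside or across Prkca on the opposite strand, 3 at Ppp3ca and 2 microRNA genes in Camk2a. No source says if strand was used in counting, so reads at these 4 loci may belong to a neighbour.

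Camk2a was the most abundant of the 9, with a mean of 569 FPKM over the 9 libraries of the later table. Ppp3ca followed at 201 FPKM, Camk2b at 104 and Ptk2b at 98.8. The ranges over libraries of Camk2a, Ppp3ca and Camk2b were apart from each other, whereas those of Camk2b and Ptk2b overlapped and their order held in 7 of 9 libraries. Ppp1r1a at 40.6 FPKM and Prkca at 39.7 could not be ordered, since Ppp1r1a was the higher in 4 of 9 libraries. Camk2g at 29.5 FPKM and Src at 23.1 came next, each below its neighbour in 9 of 9 libraries although the ranges overlapped. Camk2d was the lowest at 4.10 FPKM, with a range apart from that of Src. The length by which its reads were divided, 22493 bases, was the longest of the 9, against 1306 bases for Ppp1r1a. The part of this length in its low level was not tested. Depth did not limit these values much: over both tables Camk2a had 65703 to 84624 reads per library, while Camk2d had 987 to 2070 and Ppp1r1a 654 to 1211.

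**Figure D1:**
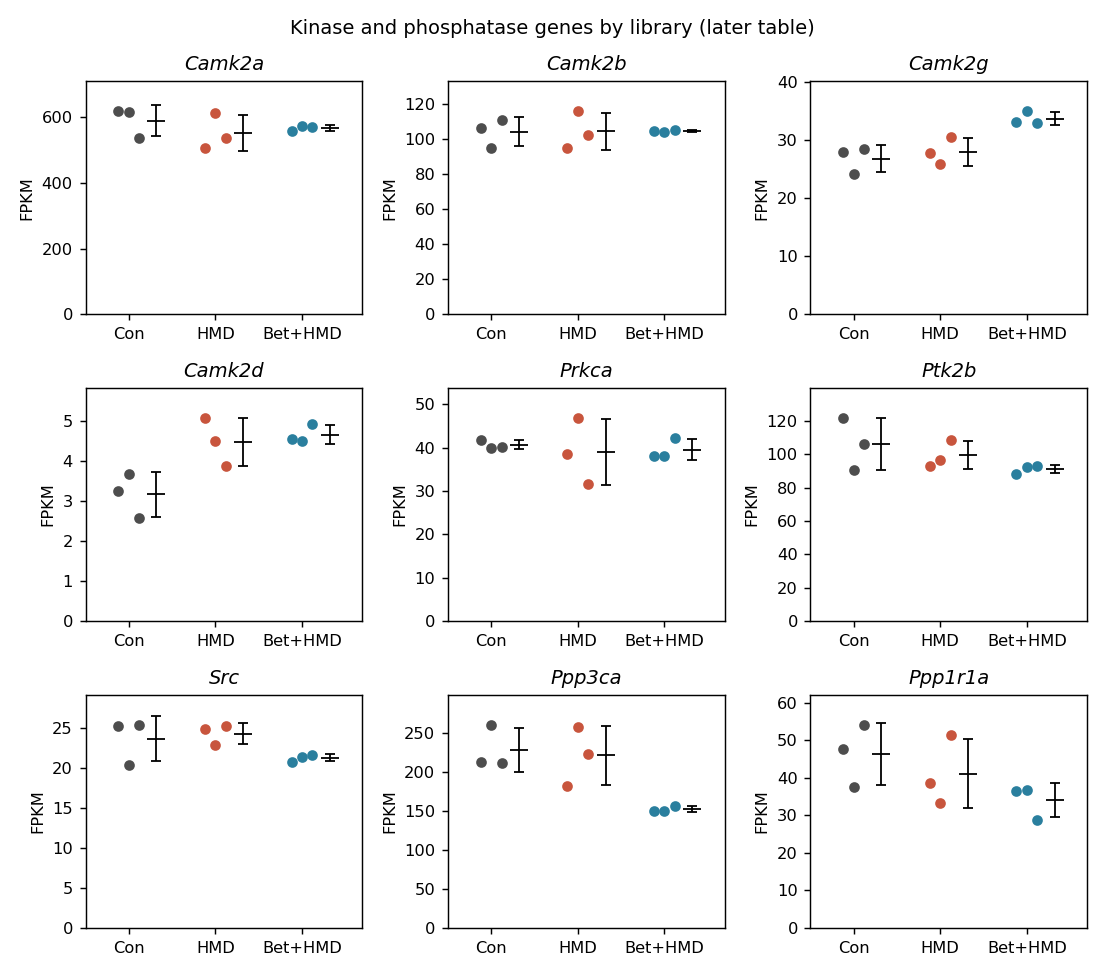
FPKM (vertical axes, from 0) of the 9 genes in each library of the later table, with a point per library and a bar for the mean with SD of 3 libraries per group. The Bet+HMD points of Ppp3ca lie at 149.6 to 156.7 FPKM, below all points of Con and HMD, and those of Camk2g lie at 33.0 to 35.0 FPKM, above all points of Con and HMD.

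The comparison of HMD with Con asks whether excess methionine altered the levels of these transcripts. None of the 9 passed the threshold of an adjusted p under 0.05, against 0% of the 12989 genes tested (limma on log2(FPKM + 1) with Benjamini-Hochberg adjustment). At an unadjusted p under 0.05 there was 1 of the 9, Camk2d, against 4.56% of all genes, and limma voom on the recovered reads called none of the 9 either. Con and HMD libraries were fully apart for 1 of the 9, again Camk2d, against 9.37% of all genes (4.71% with HMD higher and 4.66% with HMD lower). The mean was higher in HMD for 4 genes and lower for 5, with a median log2 fold change of -0.05 beside -0.0038 over all genes tested.

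Camk2a, the alpha subunit that dominates CaMKII in forebrain excitatory neurons, measured 607, 606 and 522 FPKM in the Con libraries and 501, 598 and 528 FPKM in the HMD libraries. The groups overlapped widely: the highest HMD library stood above the lowest Con library. The log2 fold change was -0.09 ± 0.129 (SE, n = 3) with a 95% interval of -0.39 to 0.21 (limma, adjusted p = 0.980). Camk2b, the beta subunit that binds actin in spines, measured 105, 94.3 and 108 FPKM in Con and 94.5, 113 and 102 FPKM in HMD, with a log2 fold change of 0.01 and an interval of -0.27 to 0.28. Camk2g, the gamma subunit, which can carry calmodulin towards the nucleus, measured 27.5, 23.7 and 27.7 FPKM in Con and 27.6, 25.2 and 30.1 FPKM in HMD. Its groups overlapped, and its log2 fold change was 0.07 with an interval of -0.21 to 0.34.

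Camk2d, the delta subunit, best known from heart muscle and the scarcest of the family here, measured 3.17, 3.69 and 2.51 FPKM in Con and 4.95, 4.36 and 3.76 FPKM in HMD. Every HMD library lay above every Con library, although the lowest HMD value and the highest Con value were close. The log2 fold change was 0.38 ± 0.147 (SE, n = 3), with an interval of 0.04 to 0.72 and an unadjusted p of 0.0336. It did not pass after adjustment over all genes (limma, adjusted p = 0.980, and 0.464 to 0.983 over the other settings). The summed FPKM of 8 thalamic marker genes stood at 19.8, 30.1 and 26.1 in Con and at 108, 41.3 and 53.5 in HMD, none of the 8 was at 0 in a whole group, and the library with the highest sum was also the one with the highest Camk2d. The part of thalamic tissue in this difference was not tested.

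The sequences just before the RefSeq promoter table's start of Camk2d, the CaMKII gene whose groups were apart, and of Camk2b, whose groups lay on top of each other, are shown to compare the promoters of a scarce and an abundant subunit. Each run is 250 bases long, read 5′ to 3′ in the direction of the gene from RefSeq on GRCm38.p6, with capitals marking each GC box, GGGCGG on either strand. The Camk2d run is chr3:126596701-126596950 on the plus strand and the Camk2b run chr11:6065749-6065998 on the minus strand. That table's start lies downstream of the gene start listed in the deposited tables, so both runs fall inside the listed gene bounds.
Camk2d: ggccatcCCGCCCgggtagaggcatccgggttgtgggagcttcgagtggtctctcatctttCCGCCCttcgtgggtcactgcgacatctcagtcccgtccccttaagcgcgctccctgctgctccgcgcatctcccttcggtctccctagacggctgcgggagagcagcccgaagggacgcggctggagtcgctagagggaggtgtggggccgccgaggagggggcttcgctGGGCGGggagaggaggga
Camk2b: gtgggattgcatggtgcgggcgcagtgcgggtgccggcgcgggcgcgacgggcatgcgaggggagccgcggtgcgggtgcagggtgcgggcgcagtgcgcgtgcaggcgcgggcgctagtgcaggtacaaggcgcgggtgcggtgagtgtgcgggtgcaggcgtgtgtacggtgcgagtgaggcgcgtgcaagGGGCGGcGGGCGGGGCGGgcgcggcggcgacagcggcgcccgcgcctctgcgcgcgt
Both windows were rich in G and C, at 68.4% for Camk2d and 78.4% for Camk2b against a median of 52.4% over 32851 windows of the same length. Each held 3 GC boxes, a motif found in 32.7% of all windows, those of Camk2d spread along the window and those of Camk2b side by side near its 3′ end. Neither held TATAAA, which 12.4% of windows had, CCAAT, which 33.8% had, or the cAMP response element TGACGTCA or its part TGACG, which 1.55% and 17.8% had, on either strand. Windows were given for 4 of the 9 genes, the others being Src and Prkca.

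Among the other kinases, Prkca measured 41.0, 39.5 and 39.1 FPKM in Con and 37.8, 45.5 and 31.0 FPKM in HMD. The Con libraries were close together, while the HMD libraries lay on both sides of them. Its log2 fold change was -0.08 with an interval of -0.42 to 0.26. Ptk2b, the calcium-responsive tyrosine kinase, measured 119, 89.1 and 103 FPKM in Con and 92.9, 94.9 and 107 FPKM in HMD, and Src measured 24.8, 20.3 and 24.7 FPKM in Con and 24.5, 22.6 and 25.0 FPKM in HMD. Both pairs of groups overlapped, with log2 fold changes of -0.07 for Ptk2b (interval -0.40 to 0.25) and 0.05 for Src (interval -0.23 to 0.32).

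On the phosphatase side, Ppp3ca measured 209, 256 and 206 FPKM in Con and 180.3, 250.04 and 220 FPKM in HMD. Library 2 was the highest of its group in both groups. The log2 fold change was -0.05 ± 0.159 (SE, n = 3) with an interval of -0.42 to 0.32. Ppp1r1a measured 47.3, 37.0 and 52.7 FPKM in Con and 38.1, 33.0 and 50.8 FPKM in HMD. Its log2 fold change of -0.17 had the widest interval of the 9, from -0.62 to 0.28, and the groups overlapped. With 3 libraries per group, differences inside these intervals were not excluded.

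The comparison of Bet+HMD with HMD asks what differed after betaine was given to mice that had eaten the methionine diet. Of the 9 genes, 2 passed the threshold, against 48.3% of the 13672 genes tested (limma, Benjamini-Hochberg adjustment). Camk2g rose, a direction called for 22.8% of all genes, and Ppp3ca fell, a direction called for 25.5%. At an unadjusted p under 0.05 there were 3 of the 9, against 55.8% of all genes. The libraries of both groups were fully apart for 4 of the 9 against 60.1% of all genes: Camk2g was higher in Bet+HMD, as were 28.3% of all genes, and Ptk2b, Src and Ppp3ca were lower, as were 31.8%. The median log2 fold change of the 9 was 0.01, beside -0.03 over all genes tested.

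Ppp3ca measured 182.4, 258 and 224 FPKM in HMD and 150.5, 149.6 and 157 FPKM in Bet+HMD in the later table. All 3 Bet+HMD libraries lay below all HMD libraries and close to each other. The mean went from 221 ± 37.7 to 152 ± 3.86 FPKM (SD, n = 3), a log2 fold change of -0.52 ± 0.123 (SE; limma, adjusted p = 0.0113). Ppp3ca stayed past the threshold whichever library was left out (adjusted p from 0.0031 to 0.0444). It no longer passed after rescaling to TPM, where its log2 fold change was -0.32 (adjusted p = 0.0658), nor after quantile normalization, where it was -0.10 (adjusted p = 0.488). Summed markers of hippocampal excitatory neurons were also lower in Bet+HMD, at 383 to 394 FPKM against 417 to 508 in HMD and 442 to 512 in Con. Among the 8 markers Slc17a7 was lower (166 to 174 FPKM against 207 to 260.4 in HMD), while Neurod6 was at 75.6 to 80.4 FPKM against 58.2 to 76.1. The summed markers of astrocytes (241 to 243 FPKM against 282 to 295), interneurons (196 to 224 against 269 to 344), microglia (86.1 to 89.5 against 95.1 to 115) and endothelium (43.2 to 45.9 against 52.5 to 59.6) were lower in Bet+HMD than in HMD too. So was the sum of general neuron markers (763 to 775 against 799 to 929). Of these, Tubb3 and Nefl were lower, and Snap25 and Syt1 overlapped. Rbfox3 (38.9 to 40.9 against 23.1 to 28.5) and Map2 (110 to 115 against 81.2 to 100) were higher. The FPKM summed over all genes was also lower, at 249135 to 258514 against 289606 to 292361 in HMD. The part of cell composition in the result was not tested.

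Camk2g measured 27.7, 25.8 and 30.6 FPKM in HMD and 33.1, 35.0 and 33.0 FPKM in Bet+HMD, and here every Bet+HMD library was above every HMD library. Its mean went from 28.1 ± 2.40 to 33.7 ± 1.12 FPKM (SD, n = 3), a rise with a log2 fold change of 0.26 ± 0.0804 (SE; limma, adjusted p = 0.0330). The call was lost without HMD library 1 or without any of the 3 Bet+HMD libraries (adjusted p from 0.0767 to 0.123), and in a fit of all 3 groups together (adjusted p = 0.0554).

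The tyrosine kinases were lower in Bet+HMD on the deposited scale without passing the threshold. Src measured 24.9, 22.9 and 25.3 FPKM in HMD and 20.8, 21.5 and 21.7 FPKM in Bet+HMD, with no overlap, a log2 fold change of -0.18 ± 0.0689 (SE, n = 3) and an adjusted p of 0.0624 in limma. Without HMD library 2 it passed (limma, adjusted p = 0.0182). Ptk2b measured 93.1, 96.3 and 109 FPKM in HMD and 88.2, 92.1 and 92.7 FPKM in Bet+HMD, again with no overlap but with the upper Bet+HMD library next to the lowest HMD library. Its log2 fold change was -0.12 (limma, adjusted p = 0.234). The direction of both genes depended on the scaling. Under TPM and quantile normalization their log2 fold changes were positive, up to 0.014 for Src and 0.27 for Ptk2b. Ptk2b passed in that direction after quantile normalization (limma, adjusted p = 0.0213).

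The remaining 5 genes overlapped between these groups. Camk2a measured 507, 612 and 536 FPKM in HMD and 557, 574 and 569.9 FPKM in Bet+HMD, so that the Bet+HMD libraries fell inside the spread of HMD, and its log2 fold change was 0.04 with an interval of -0.16 to 0.25. Camk2b behaved likewise, with 94.7, 116 and 102 FPKM in HMD, 105, 104 and 105 FPKM in Bet+HMD, and an interval of -0.19 to 0.21. Camk2d measured 5.07, 4.50 and 3.88 FPKM in HMD and 4.55, 4.49 and 4.93 FPKM in Bet+HMD, with a log2 fold change of 0.05 and an interval of -0.18 to 0.29. Its Bet+HMD libraries thus stood within the HMD range while the thalamic marker sum stood at 34.4 to 35.8 FPKM, below all HMD libraries. Prkca measured 38.4, 46.7 and 31.6 FPKM in HMD and 38.1, 38.1 and 42.2 FPKM in Bet+HMD, with an interval of -0.29 to 0.36. Ppp1r1a measured 38.6, 33.4 and 51.5 FPKM in HMD and 36.6, 36.9 and 28.8 FPKM in Bet+HMD, with a log2 fold change of -0.25 (limma, adjusted p = 0.256) that ran from -0.39 to -0.081 when a library was left out.

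**Figure D2:**
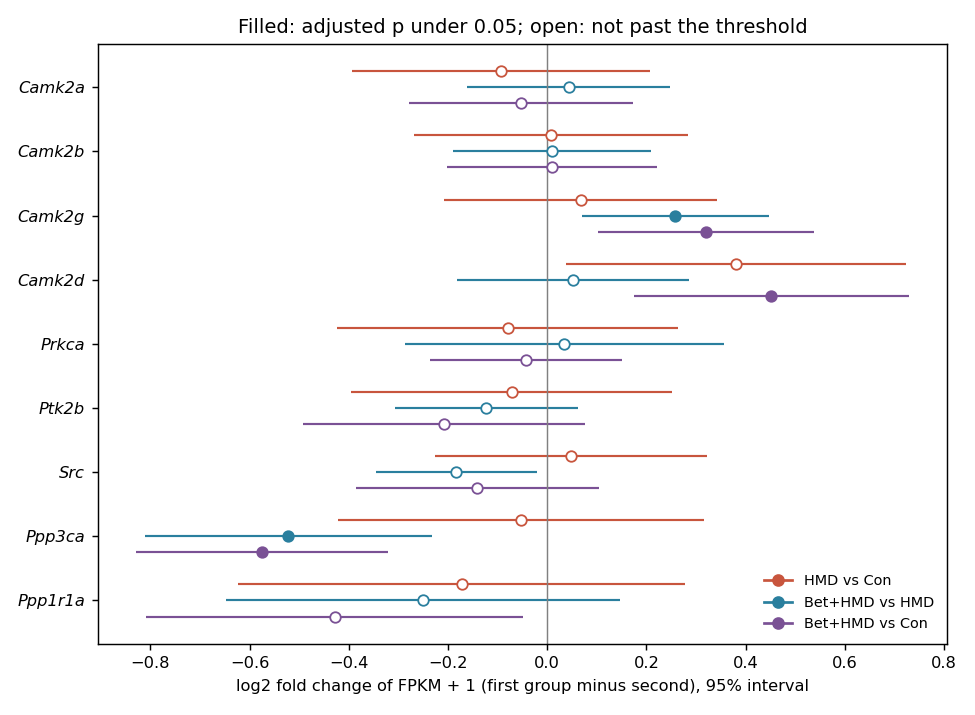
Log2 fold change of FPKM + 1 (horizontal axis, first group minus second) of the 9 genes in the 3 comparisons, with 95% intervals from limma; filled points have an adjusted p under 0.05. Ppp3ca and Camk2g are filled in both comparisons with Bet+HMD, at -0.52 and -0.57 and at 0.26 and 0.32, Camk2d is filled at 0.45 for Bet+HMD against Con alone, and no point is filled for HMD against Con.

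Bet+HMD was also compared with Con, which shares its Bet+HMD libraries with the preceding comparison, so the 2 sets of values are not independent. Of the 9 genes, 3 passed, against 39.7% of the 13643 genes tested (limma, Benjamini-Hochberg adjustment). Camk2d and Camk2g rose, the higher direction being called for 19.4% of all genes, and Ppp3ca fell, the lower direction being called for 20.4%. At an unadjusted p under 0.05 there were 4 of the 9, against 49.6% of all genes. The libraries of both groups were fully apart for 4 of the 9, the 3 that passed and Ppp1r1a, against 55.1% of all genes (26.1% higher and 29% lower). The median log2 fold change of the 9 was -0.05, beside -0.04 over all genes tested.

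Con libraries of the later table held 213, 260.2 and 212 FPKM of Ppp3ca, all above the 150.5, 149.6 and 157 FPKM of Bet+HMD. The log2 fold change was -0.57 ± 0.107 (SE, n = 3) (limma, adjusted p = 0.0064). It passed whichever library was left out (adjusted p from 0.0047 to 0.0362) but not after quantile normalization (-0.14, adjusted p = 0.330). Ppp1r1a, whose product acts downstream of calcineurin, measured 47.6, 37.6 and 54.1 FPKM in Con, all above the 36.6, 36.9 and 28.8 FPKM of Bet+HMD, with a log2 fold change of -0.43 ± 0.160 that did not pass (limma, adjusted p = 0.0719).

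Within the CaMKII family, Camk2d measured 3.24, 3.68 and 2.57 FPKM in Con and 4.55, 4.49 and 4.93 FPKM in Bet+HMD, without overlap. Its mean rose from 3.16 ± 0.561 to 4.66 ± 0.239 FPKM (SD, n = 3), with a log2 fold change of FPKM + 1 of 0.45 ± 0.117 (SE; limma, adjusted p = 0.0217), which was 0.74 under TPM. Camk2g measured 28.0, 24.1 and 28.4 FPKM in Con, all below Bet+HMD, and rose with a log2 fold change of 0.32 ± 0.0918 (limma, adjusted p = 0.0310). Both calls were lost without any one of the Bet+HMD libraries, with adjusted p from 0.0643 to 0.0846 for Camk2d and from 0.0902 to 0.125 for Camk2g, and Camk2d was also lost after quantile normalization (0.36, adjusted p = 0.0512). The thalamic marker sum was 20.0 to 30.6 FPKM in Con and 34.4 to 35.8 in Bet+HMD. Among its genes Slc17a6 (8.38 to 8.92 FPKM in Bet+HMD against 2.99 to 5.38 in Con), Tcf7l2 and Plekhg1 were above all Con libraries. Lef1, Prkcd (5.46 to 5.61 against 3.27 to 5.62), Rora, Rgs16 and Zic1 overlapped with Con. The part of thalamic tissue in the Camk2d difference was not tested. Camk2a, at 617, 615 and 536 FPKM in Con, and Camk2b, at 106, 94.9 and 111 FPKM, overlapped with Bet+HMD, with log2 fold changes of -0.05 and 0.01.

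The other kinases overlapped between Bet+HMD and Con. Ptk2b measured 121, 90.2 and 106 FPKM in Con, with a log2 fold change of -0.21 (limma, adjusted p = 0.209), and Src measured 25.3, 20.5 and 25.4 FPKM, with a log2 fold change of -0.14 (limma, adjusted p = 0.316). In both genes Con library 2 was the low one, inside or below the Bet+HMD range. Without Con library 2, 6 of the 9 genes passed in place of 3, with Ptk2b, Src and Ppp1r1a added. Prkca measured 41.8, 40.0 and 40.1 FPKM in Con and had a log2 fold change of -0.04 with an interval of -0.24 to 0.15.

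CaMKII holoenzymes can mix subunits, so the share of each gene in the FPKM summed over the 4 Camk2 genes was computed per library. Camk2a made up 81.4 ± 2.17% in Con, 80.1 ± 0.576% in HMD, and 79.9 ± 0.185% of the sum in Bet+HMD (SD, n = 3, later table). No pair of groups was apart in the Camk2a share, with two-sided exact permutation p of 0.4 for HMD and for Bet+HMD against Con and 0.8 for Bet+HMD against HMD. With 3 libraries against 3 this test cannot give less than 0.1. Camk2d made up 0.436 ± 0.0603% in Con, 0.656 ± 0.124% in HMD and 0.656 ± 0.0332% in Bet+HMD. Its share was 0.379% to 0.499% over the Con libraries and 0.576% to 0.799% over the HMD libraries, so these did not overlap, and neither did Con and Bet+HMD, each with the smallest exact permutation p of 0.1. The Camk2g share was 3.72 ± 0.464% in Con, 4.11 ± 0.614% in HMD and 4.75 ± 0.127% in Bet+HMD, where it was above all libraries of both other groups (exact permutation p = 0.1 for each).

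Ppp3ca was also set against the other catalytic subunits of calcineurin, Ppp3cb and Ppp3cc. It made up 77.5 ± 0.573% of their summed FPKM in Con, 76.0 ± 2.16% in HMD and, at the lowest mean, 75.3 ± 0.484% in Bet+HMD (SD, n = 3). Bet+HMD and HMD overlapped in this share (exact permutation p = 0.8), whereas all Bet+HMD libraries lay below all Con libraries. The Bet+HMD mean was lower than that of Con by 2.17 percentage points (exact permutation p = 0.1), or by 1.34 points in shares of recovered reads. Ppp3cb, the beta subunit, went from 64.3 ± 13.1 to 43.1 ± 2.59 FPKM between HMD and Bet+HMD and fell with a log2 fold change of -0.55 (limma, adjusted p = 0.0143), a call lost under TPM (-0.36, adjusted p = 0.0705) and quantile normalization (-0.25, adjusted p = 0.157). Ppp3cc, the gamma subunit, went from 5.39 ± 0.459 to 6.75 ± 0.500 FPKM and rose with a log2 fold change of 0.28 (limma, adjusted p = 0.0359), a call lost after quantile normalization (0.24, adjusted p = 0.0626). Its share was 1.88% in HMD and 3.34 ± 0.328% in Bet+HMD, without overlap.

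**Figure D3:**
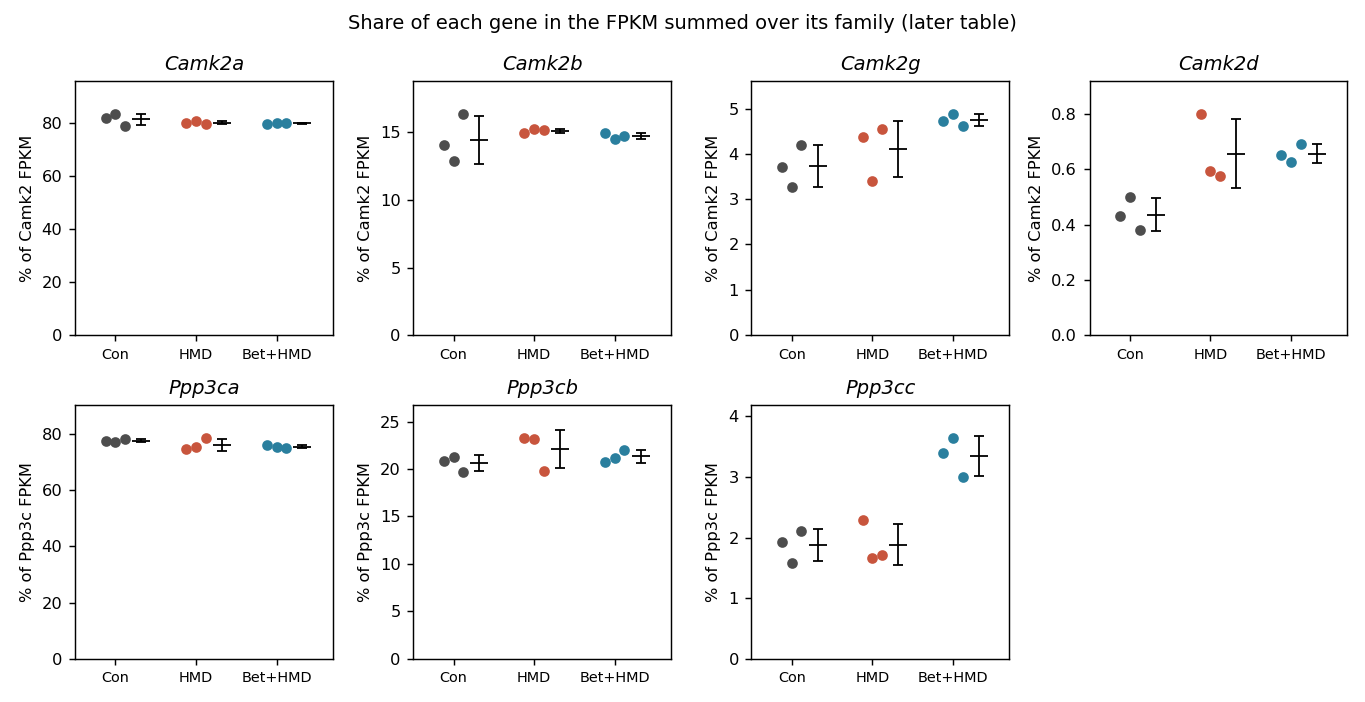
Percent of the FPKM summed over the 4 Camk2 genes, and over the 3 Ppp3c genes, taken by each gene (vertical axes, from 0) per library of the later table, with the mean and SD of 3 libraries. Camk2a holds about the same share in all groups (81.4%, 80.1% and 79.9%), while the Camk2d points of HMD and Bet+HMD lie above those of Con and the Camk2g and Ppp3cc points of Bet+HMD lie above those of both other groups.

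The direction of several of these genes between Bet+HMD and the other groups depended on how libraries were scaled. TPM sets the sum over genes of every library to the same value, and with it the all-gene median of the log2 fold change went from -0.03 to 0.16 against HMD and from -0.04 to 0.17 against Con, and the share of calls that were higher from 47.2% to 69.5% and from 48.8% to 73.5%. With voom on recovered reads this share was 57.3% and 59.0%. Camk2g kept its call under TPM, quantile normalization, median centring and voom in both comparisons, with log2 fold changes of 0.26 to 0.48 against HMD and 0.32 to 0.56 against Con. Ppp3ca had a negative sign under all 4 in both comparisons. Camk2a and Camk2b passed after quantile normalization alone, at 0.51 and 0.40 against HMD (limma, adjusted p = 0.0017 and 0.0053) and 0.50 and 0.43 against Con (limma, adjusted p = 0.0070 and 0.0076). Ptk2b, lower in Bet+HMD than in HMD on the deposited scale, was higher at 0.27 after quantile normalization (limma, adjusted p = 0.0213).

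**Figure D4:**
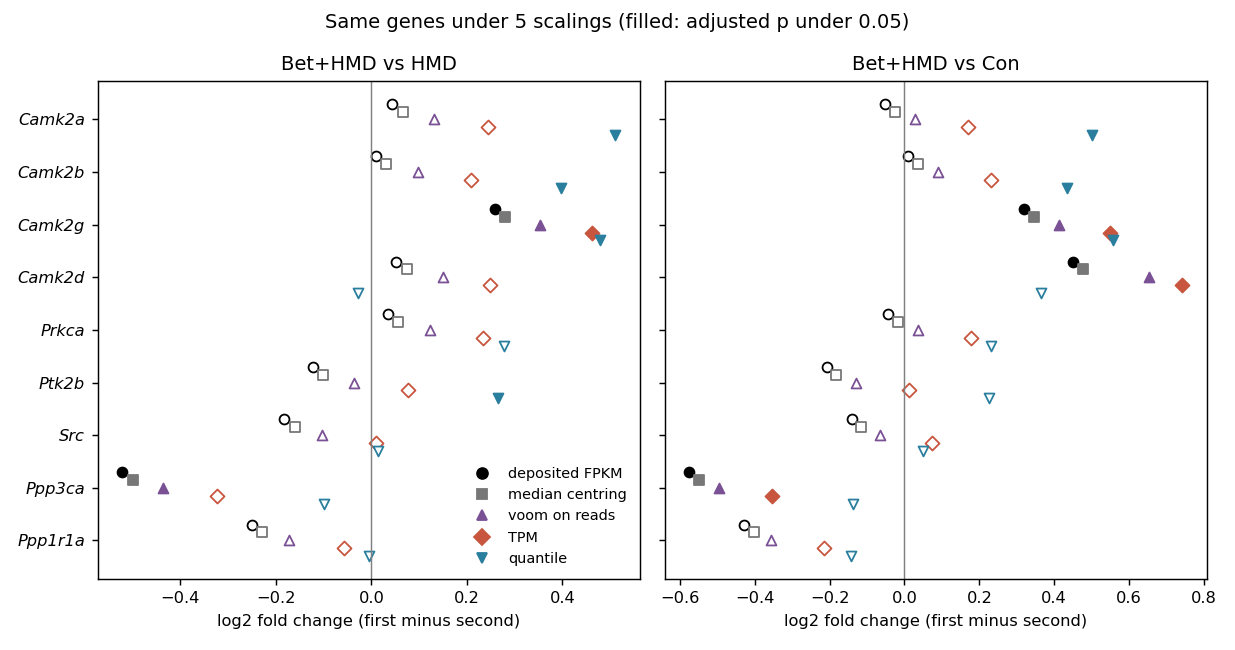
Log2 fold change (horizontal axes) of the 9 genes for Bet+HMD against HMD and against Con under 5 scalings of the same libraries, marked by shape, filled where the adjusted p was under 0.05. Camk2g lies to the right of 0 and is filled under every scaling, Ppp3ca lies to the left of 0 but is open under quantile normalization (-0.10 and -0.14) and, against HMD, under TPM (-0.32), and Camk2a and Camk2b are filled under quantile normalization alone.

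Around the 9 genes, 62 further genes of the same pathways were examined in 7 lists, of which 60 were expressed highly enough to be tested. Between HMD and Con none of the 60 passed (limma, Benjamini-Hochberg adjustment; 2 at an unadjusted p under 0.05, and none with voom). The smallest p was that of Rcan2, a regulator that binds and restrains calcineurin, with 28.1 ± 4.53 FPKM in Con and 47.5 ± 8.10 FPKM in HMD (SD, n = 3; log2 fold change 0.73, limma adjusted p = 0.726). Prkcd, protein kinase C delta, followed with 4.21 ± 1.14 FPKM in Con and 12.6 ± 6.92 in HMD (log2 fold change 1.28, limma adjusted p = 0.906). Prkcd is also 1 of the 8 thalamic markers whose sum was higher in HMD. Camkv and Prkar2a came next, with log2 fold changes of -0.31 and 0.23 (limma, adjusted p = 0.980 for each).

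Between Bet+HMD and HMD, 29 of the 60 passed, 5 higher and 24 lower, which at 48.3% equals the background share over all genes. The median log2 fold change of the 60 was -0.25, beside -0.03 over all genes. Under TPM the calls were 10 higher and 10 lower, and after quantile normalization 8 higher and 11 lower. With voom they were 8 and 20, and with median centring 5 and 24. The excess of lower calls thus depended on the scaling and was absent under TPM. Of the 29 calls, 11 were kept with the same sign under TPM, quantile normalization, median centring and voom alike, among them Camk1 and Akap5, which rose, and Map2k1, Ppp1cb, Ppp1r2, Ppp2ca, Ptpn11, Rcan1 and Rcan3, which fell. Quantile normalization turned the sign of 7 others, among them Calm3, Camk2n1, Camkv, Prkaca and Prkar1b, so the directions given for these belong to the other scales. The remaining calls on the deposited scale were each lost under at least 1 of the 4 scalings. The counts by list stand beside 22.8% of all genes called higher and 25.5% called lower. In the calmodulin and CaM kinase list 1 of 13 rose and 5 fell. Camk1, a kinase of the same calmodulin-dependent cascade, rose from 3.60 ± 0.152 to 6.02 ± 0.279 FPKM (SD, n = 3; log2 fold change 0.61), while Calm3, the kinase kinase Camkk1, the CaMKII inhibitor Camk2n1 and Camkv were among those that fell. In the protein kinase C list none of 7 rose and 2 fell, among them Prkcd (log2 fold change -0.97).

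In the protein kinase A list 1 of 9 rose and 6 fell between HMD and Bet+HMD, where 22.8% of all genes were called higher and 25.5% lower. Akap5, the anchoring protein that holds protein kinase A and calcineurin at the synapse, rose from 10.6 ± 1.30 to 16.4 ± 0.334 FPKM (SD, n = 3; log2 fold change 0.60), and Pkia, a protein kinase A inhibitor, fell with a log2 fold change of -0.62. In the list of Src family kinases and their partners none of 8 rose and 2 fell, the phosphatases Ptpn11 (-0.56) and Ptpra (-0.23). In the calcineurin list, which holds Ppp3cb and Ppp3cc, 1 of 6 rose and 3 fell, with Rcan1 at -0.48 and Rcan3 at -0.52. In the list of protein phosphatases 1 and 2A none of 9 rose and 4 fell, among them the catalytic subunits Ppp1cb (-0.62), Ppp2ca (-0.59) and Ppp2cb (-0.48). In the MAP kinase list 2 of 8 rose and 2 fell, and Map2k1, the kinase MEK1, fell from 110.0 ± 11.2 to 51.8 ± 1.54 FPKM (SD, n = 3; log2 fold change -1.07).

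**Figure D5:**
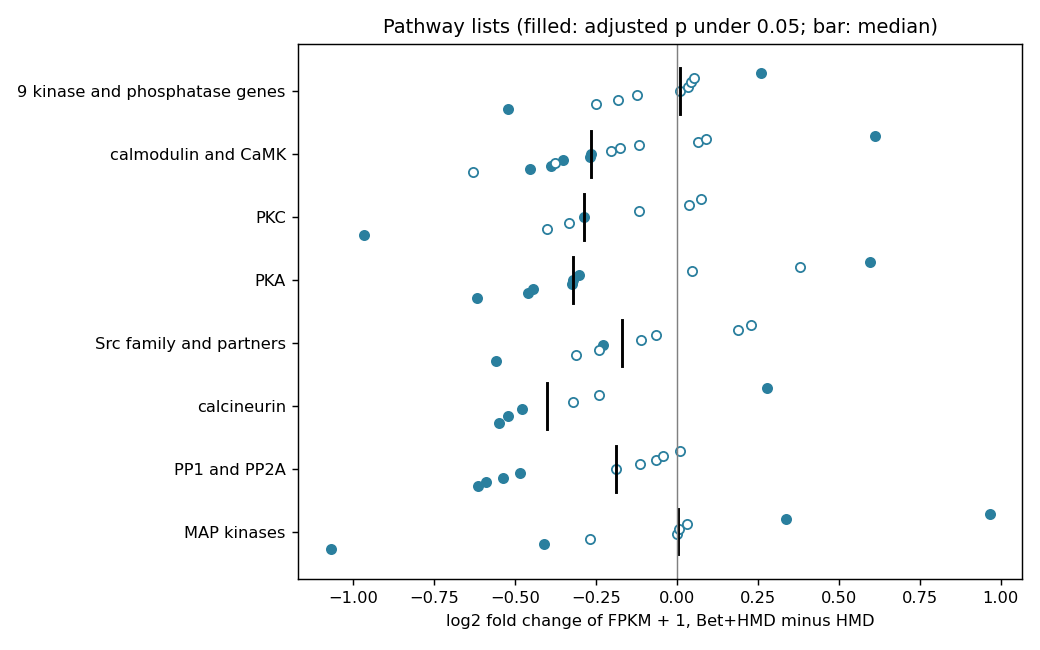
Log2 fold change of FPKM + 1 for Bet+HMD minus HMD (horizontal axis) of each tested gene in the 9 and in the 7 pathway lists (rows), filled where the adjusted p was under 0.05, with a bar at each median. The median of the 9 genes lies at 0.01, that of the MAP kinase list at 0.0022, and those of the other 6 lists between -0.40 and -0.17.

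Between Bet+HMD and Con, 27 of the 60 passed, 8 higher and 19 lower, or 45% against 39.7% of all genes, with a median log2 fold change of -0.23 beside -0.04. Under TPM the calls were 14 higher and 6 lower, which turned the balance, and after quantile normalization 10 and 5, while with voom they were 9 and 17 and with median centring 8 and 18. Of the 27 calls, 9 were kept under all 4 other scalings, among them Akap5, Akap12, Camk1, Ptpn5 and Rcan2, which rose, and Map2k1 and Rcan1, which fell. The other calls on the deposited scale were each lost under at least 1 of the 4. Map2k1 fell here as well (log2 fold change -0.98). Nrgn, neurogranin, which binds calmodulin in spines, measured 578, 474 and 584 FPKM in Con and 343, 361 and 349.7 FPKM in Bet+HMD and fell with a log2 fold change of -0.63 (limma, adjusted p = 0.0050), a call lost after quantile normalization (-0.17, adjusted p = 0.160). Rcan2 rose from 28.7 ± 4.42 to 38.2 ± 0.653 FPKM (SD, n = 3; log2 fold change 0.41, limma adjusted p = 0.0295). Over all genes 19.4% were called higher and 20.4% lower against Con. By list, 1 of 13 calmodulin and CaM kinase genes rose and 4 fell, none of 7 in the protein kinase C list rose and 1 fell, 2 of 9 in the protein kinase A list rose and 3 fell, and 1 of 8 in the Src list rose and 2 fell. In the calcineurin list 2 of 6 rose and 3 fell, in the phosphatase 1 and 2A list none of 9 rose and 4 fell, and in the MAP kinase list 2 of 8 rose and 2 fell.

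Likeness to Camk2a over the libraries was measured for every gene. By the distance between log2(FPKM + 1) values, each centred on its own mean over the 9 libraries, the genes most like Camk2a among 13463 were the astrocyte glutamate transporter Slc1a3 (0.0898), the transcription factor Pknox1 (0.103) and the synaptic adhesion protein Lrrc4 (0.126), against a median of 0.735 over all genes. Of the other 8 genes, Camk2b was nearest to Camk2a at 0.326, rank 576, followed by Prkca at 0.347, rank 764. Camk2d at 0.799, Ppp3ca at 0.820 and Ppp1r1a at 0.947 were farther than the median gene. Libraries of Bet+HMD were more alike than those of the other groups: the median SD of log2(FPKM + 1) was 0.0381 over the 9 genes and 0.0797 over all genes in Bet+HMD, 0.143 and 0.152 in HMD, and 0.169 and 0.178 in Con.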

How the data were processed

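Reads of ribosome-depleted, stranded paired-end libraries were aligned to mm10 with HISAT2 and counted with featureCounts (versions 2.1.0 and 1.5.0-p3 per the submitters' processing notes). The authors deposited FPKM per gene in 2 tables, the later one adding Bet+HMD, together with each gene's length in bases (another deposited unit, not a measurement of expression). The 6 shared samples had 0.312% to 5.49% fewer reads in the later table, so tests stayed within a table. FPKM gave whole reads for 100% of values (tolerance 0.02 reads). Columns with the prefix COL were read as Con, which is inferred. Of the listed identifiers 54495 were in GENCODE M21 (GRCm38), 98.3% with the same coordinates.

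Genes with a mean of at least 1 FPKM in the fit were tested on log2(FPKM + 1), a scale that understates changes of low genes, with limma 3.58.1 (R 4.3.3; intensity trend; two-sided p adjusted by Benjamini-Hochberg over all genes tested; threshold 0.05). The study used a count model; here the deposited unit, FPKM, was tested on a log scale, with voom on the recovered reads as an alternative. Depth was 16031464 to 18566712 assigned reads, and counting error alone is small for the 9 genes. Shares were compared with two-sided exact permutation tests (scipy 1.17.1). The script was tested on simulated data.

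The members, pathway lists and tests were chosen with earlier results of these data known. Named pathway genes were up to 12 per comparison with the largest change among those past the threshold, or the 4 with the smallest p where fewer than 4 passed; others named show the content of a list and were chosen after their values were seen. Some genes of the lists are counted but not reported here by name. Alternatives were a pseudocount of 0.1, no filter, a filter at 5 FPKM, TPM, quantile normalization, median centring, no trend, all 3 groups together, protein-coding genes, voom on recovered reads, the replicate number as a block, the later table for HMD against Con, shares of reads, and leaving out each library.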

Additional observations from a re-analysis of the deposited data

How the results depend on the processing

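The count of the 9 genes called for Bet+HMD against HMD (2) was 1 under TPM, 1 with all 3 groups in one fit, 1 with the replicate block and 4 after quantile normalization, and it ran from 1 to 3 when a library was left out. Against Con (3) it was 1 with the block and 1 to 6 when a library was left out. Counts for the other pathway genes were 19 against HMD (main 29) and 15 against Con (main 27) after quantile normalization, 13 against Con with the block, and 17 to 33 and 10 to 34 when a library was left out. For HMD against Con none of the 9 was called under any alternative.

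Signs turned for small differences. Against HMD, Ptk2b was 0.076 and Src 0.0091 under TPM, and Camk2d was -0.027, Ptk2b 0.27 and Src 0.014 after quantile normalization. Against Con, Camk2a was 0.17, 0.50 and 0.028 and Prkca 0.18, 0.23 and 0.037 under TPM, quantile normalization and voom, while Ptk2b was 0.012 and 0.23 and Src 0.074 and 0.049 under TPM and quantile normalization. For HMD against Con, Camk2a was 0.0081 after quantile normalization and Camk2b -0.0025 with voom. The Ppp3ca share between Bet+HMD and HMD was 0.0548 points in reads. The cause of these turns was not tested.

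Leaving out a library gave, for HMD against Con, -0.060 to 0.067 for Camk2b, -0.0025 to 0.13 for Camk2g, -0.21 to 0.056 for Prkca, -0.18 to 0.032 for Ptk2b, -0.042 to 0.095 for Src and -0.16 to 0.073 for Ppp3ca. Against HMD it gave -0.016 to 0.12 for Camk2a, -0.056 to 0.085 for Camk2b, -0.030 to 0.13 for Camk2d and -0.10 to 0.17 for Prkca, and shares moved from -0.452 to 0.0899 points for Camk2a and from -1.49 to 0.542 for Ppp3ca. Against Con, Camk2b ran from -0.054 to 0.057.

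Replicate numbers were not used to pair the samples in the main fits. The correlation of deviations of same-numbered samples ran from -0.0555 to 0.346 for HMD with Con, from -0.151 to 0.0171 for Bet+HMD with HMD and from -0.176 to -0.0489 for Bet+HMD with Con. For HMD with Con it was 0.346 for number 2 and 0.319 for number 3. Whether those libraries share a batch is not stated and was not tested. With the number as a block Camk2g was lost in both Bet+HMD comparisons (limma, adjusted p = 0.0894 and 0.103) and Camk2d against Con (0.0589), while Ppp3ca stayed. A filter at 5 FPKM leaves Camk2d untested. Depth limits little here, and 3 libraries per group set the precision.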
